A study of Mus musculus with 8 samples.

Results

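Gap junctions and desmosomes hold neighbouring heart muscle cells together, electrically and mechanically. The 10 genes described here code for parts of both: 6 connexins (Gja1, Gja3, Gja4, Gja5, Gjc1 and Gjb2) and 4 desmosome genes (Dsp, Pkp2, Dsg2 and Dsc2). They were taken by gene symbol from the 50600 genes in each of 3 deposited comparison tables, each symbol matching 1 row. RNA sequencing was done on C57BL/6 mouse embryonic fibroblasts that all carried GHMT retroviruses, for the transcription factors Gata4, Hand2, Mef2c and Tbx5, which turn some fibroblasts towards a heart muscle fate. All cells were grown in StemPro-34 medium and treated for 7 days with 0.1% ethanol, 1% DMSO, 5 µM I-CBP112, a ligand of the CBP/p300 bromodomains, or 5 µM C646, which blocks their acetyltransferase domain. There are 2 libraries for each treatment, 8 altogether, and none without the viruses. No solvent is named for either inhibitor, so an inhibitor and its solvent cannot be told apart. The 3 tables compare DMSO, I-CBP112 and C646 with 1 common reference, read here as ethanol, the group with no table of its own. They hold no values of single libraries, so levels below are group means rebuilt from the tables, in normalised counts, and whether the libraries of 2 groups overlap is not known. Nothing in the labels says that the 2 libraries of a treatment came from separate embryos or cultures. The errors rest on a fitted spread between libraries, which may be technical.

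Connexins assemble into hexameric channels, and channels of adjoining cells dock to form a gap junction through which ions and small molecules pass. Gja1 (Cx43) is the main connexin of working heart muscle and is also made by fibroblasts, Gja5 (Cx40) belongs to atrial and conduction cells and to arterial endothelium, and Gjc1 (Cx45) to early heart and nodal cells. Gja4 (Cx37) is best known from endothelium, Gja3 (Cx46) from the lens, and Gjb2 (Cx26) from epithelia and the inner ear. In the desmosome the cadherins desmoglein (Dsg2) and desmocollin (Dsc2) span the gap between cells, plakophilin (Pkp2) and plakoglobin (Jup) bind their tails, and desmoplakin (Dsp) links the plaque to intermediate filaments. Mutations in these desmosome genes are known from arrhythmogenic cardiomyopathy.

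Gja3 and Dsp were higher and Gja4 was lower with both DMSO and I-CBP112. The RefSeq promoter windows of these 3 genes on GRCm38.p6, running from 250 bases before to 50 bases after the start of the transcript, are printed here because they were the members that passed the test in both tables. Capitals mark matches on either strand to any of 5 motifs searched. TATAAA is the core promoter box that bears its name. AGATAA is a form of the site bound by Gata factors such as Gata4. For Mef2 factors the search was for CTA followed, after any 4 bases, by TAG. The T-box element searched, GGTGTGA, is bound by Tbx5 and its relatives. CAGCTG is a form of the E-box, bound by basic helix-loop-helix factors such as Hand2 with their partners. The Gja3 window is chr14:57057981-57058280 (minus strand), the Dsp window chr13:38151044-38151343 (plus strand) and the Gja4 window chr4:127313990-127314289 (minus strand).
Gja3: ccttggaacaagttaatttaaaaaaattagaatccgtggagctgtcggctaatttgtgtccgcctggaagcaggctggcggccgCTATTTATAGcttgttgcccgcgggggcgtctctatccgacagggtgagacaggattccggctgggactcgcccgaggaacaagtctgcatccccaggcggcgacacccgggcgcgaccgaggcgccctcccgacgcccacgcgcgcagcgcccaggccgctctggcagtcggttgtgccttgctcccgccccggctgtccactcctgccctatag
Dsp: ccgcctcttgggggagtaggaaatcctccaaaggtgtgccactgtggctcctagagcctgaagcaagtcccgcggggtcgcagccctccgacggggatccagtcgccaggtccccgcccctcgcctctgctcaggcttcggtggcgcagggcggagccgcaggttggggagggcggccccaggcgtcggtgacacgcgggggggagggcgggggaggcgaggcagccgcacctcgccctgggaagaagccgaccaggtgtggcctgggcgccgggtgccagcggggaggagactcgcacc
Gja4: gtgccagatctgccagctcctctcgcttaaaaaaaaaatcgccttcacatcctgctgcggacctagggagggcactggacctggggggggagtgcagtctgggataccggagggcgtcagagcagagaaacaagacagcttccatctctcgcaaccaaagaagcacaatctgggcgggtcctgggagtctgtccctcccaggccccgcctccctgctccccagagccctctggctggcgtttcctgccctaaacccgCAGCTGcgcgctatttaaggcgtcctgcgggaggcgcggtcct
The Gja3 window holds CTATTTATAG, a match to the MEF2 letters, which begins at position -166, counting the start site as 0; the TATA letters are met inside it, on the other strand. The MEF2 letters occur in 3.70% of 27025 promoter windows of this length, 1 a gene, and the TATA letters in 14.2%. The Dsp window holds none of the 5 motifs. The Gja4 window holds the E-box letters, beginning at position 7; 16.1% of windows hold them. The RefSeq table holds 6 of the 10 genes. Among the windows not printed, that of Gja1 holds the GATA letters, beginning at position -135, and 11.4% of all windows hold them. The windows of Gja5 and Gjb2 hold none of the 5 motifs. A match describes the letters and is no evidence that a factor binds there.

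By counts per kilobase of the transcript that the tables list for each gene, Gja1 (2756), Dsp (2021) and Pkp2 (1750) stood far above the other members, as means over all 8 libraries. Gjc1 followed at 116, Dsc2 at 78.9, Gja3 at 63.1, Gja4 at 15.5, Dsg2 at 14.5, Gja5 at 13.6 and Gjb2 at 1.44 per kilobase. By all annotated exon bases Dsp (1624) was above Gja1 (825) and Pkp2 (640), so the order of the first 3 depends on the length used. Gja1 made up 93.6% of the counts of all 20 connexin genes listed; 18 of these had any count and 11 had a mean below 10 normalised counts. An adjusted p was given to 9 of the 10 members for DMSO and for I-CBP112, and to 10 for C646; Gjb2, at a mean of 3.47, was the one below the filter. The plot of levels by treatment shows all 10 genes.

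**Figure D1:**
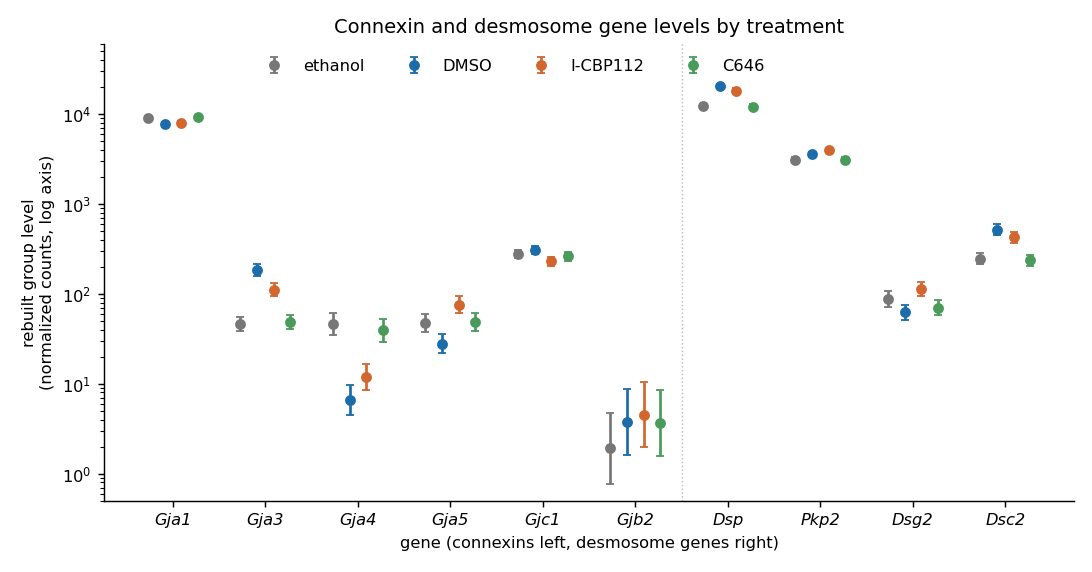
Rebuilt group level of each gene (normalised counts, log axis) with ethanol, DMSO, I-CBP112 and C646; points are group means of 2 libraries and bars span 1 standard error (SE) either way. Gja3, Dsp and Dsc2 are higher and Gja4 lower with DMSO than with ethanol, while C646 points sit near those of ethanol.

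The comparison of DMSO with ethanol sets solvents against each other, at 1% and 0.1%. Every group received a solvent or an inhibitor, so effects of DMSO, of ethanol and of dose cannot be told apart. Among the members Gja3, Dsp and Dsc2 rose and Gja4 fell, 4 of 9 tested, whereas 16% of all 14830 tested genes passed (8.07% upward and 7.9% downward) at an adjusted p below 0.05. With I-CBP112, Gja3, Dsp and Pkp2 rose and Gja4 fell, again 4 of 9, where 9.9% of tested genes passed (4.65% upward and 5.25% downward). With C646, 0 of 10 members passed by the authors' DESeq2 test, and 0 also at an unadjusted p below 0.05. Of all 34250 genes with counts 0.00584% passed the adjusted test (0.00292% in each direction, 1 gene apiece) and 0.581% the unadjusted one. The unadjusted share is well below the 0.05 cut, which is about the share expected with no effect. Missing both cuts therefore does not show that C646 left the members unchanged. The 3 comparisons share their ethanol libraries, so their values are set side by side and are not independent of each other. With p-values from a t distribution on 4 degrees of freedom, 0 members passed in any comparison, and of all 14830 tested genes 1 passed for DMSO and 0 for I-CBP112, so that setting sets nothing apart about the members. The plot of deposited fold changes shows them for every member.

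**Figure D2:**
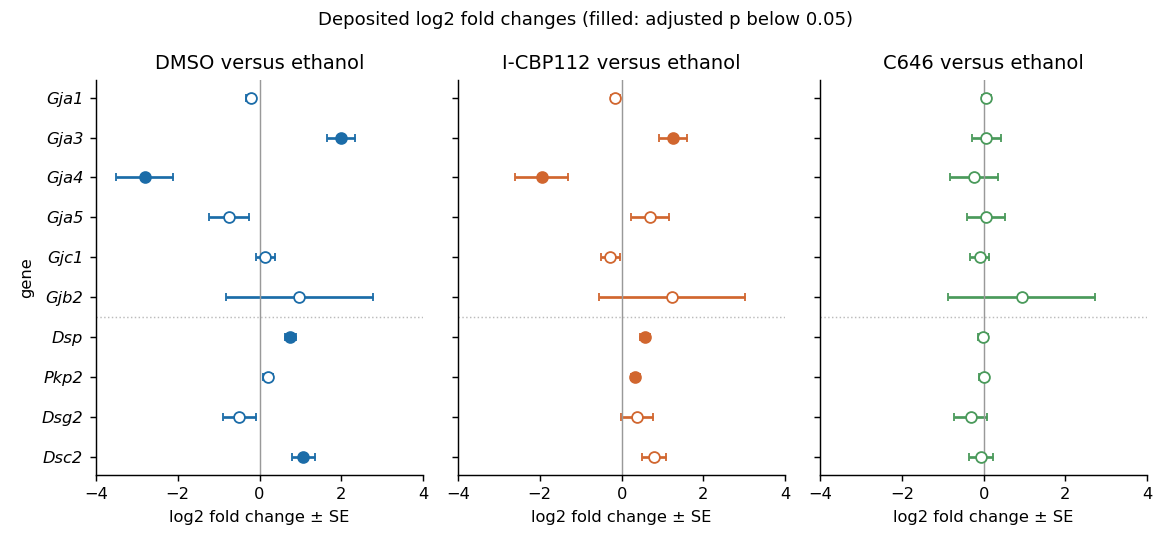
Log2 fold change ± SE of each gene from the authors' deposited tables, against ethanol, in 1 panel for each treatment; filled points have an adjusted p below 0.05. Gja3, Gja4 and Dsp are filled in both the DMSO and the I-CBP112 panel, Dsc2 only in the first, Pkp2 only in the second, and no point is filled for C646.

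Gja3 (ENSMUSG00000048582.6; chromosome 14, 57034460 to 57058100, minus strand, GRCm38), a connexin of lens fibres, had the largest rise of the members. Its rebuilt level was 46.5 normalised counts with ethanol, 184 under DMSO, 111 under I-CBP112 and 48.8 under C646. DMSO was thus highest, I-CBP112 next, and C646 close to ethanol. In the authors' deposited table for DMSO, Gja3 was 3.96 times as high as with ethanol, a log2 fold change of 1.98 ± 0.34 (SE; adjusted p = 2.33e-07). In the authors' deposited table for I-CBP112 it was 2.40 times as high, at 1.26 ± 0.35 (adjusted p = 0.00474), and in that for C646 it stood at 0.07 ± 0.36 (adjusted p = 1). The neighbouring levels of I-CBP112 and DMSO differed by -0.72 ± 0.32, not past the test (adjusted p = 0.187, 95% interval -1.35 to -0.09, whose far end is 0.391 times the DMSO level). Gjb2 lies next to Gja3 on chromosome 14, from 57098600 to 57104702, and its level was 1.92 normalised counts with ethanol, 3.77 under DMSO, 4.52 under I-CBP112 and 3.65 under C646. Its standard errors of 1.78 to 1.79 in the authors' deposited tables leave wide intervals, at 95% from 0.172 to 22.5 times the ethanol level for Gjb2 with DMSO.

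Gja4 (ENSMUSG00000050234.7; chromosome 4, 127311421 to 127314039, minus strand), an endothelial connexin, went the other way. Its rebuilt level was 46.4 normalised counts with ethanol, 39.4 with C646, 12.0 with I-CBP112 and 6.61 with DMSO. The DMSO and I-CBP112 levels lay well below the other pair. Gja4 in the authors' deposited table for DMSO was at 14.2% of the ethanol level, a log2 fold change of -2.81 ± 0.69 (adjusted p = 0.000728), and in that for I-CBP112 at 25.8%, or -1.96 ± 0.64 (adjusted p = 0.0267). With C646 it stood at -0.24 ± 0.58 in the authors' deposited table (adjusted p = 1). The I-CBP112 and DMSO levels differed by 0.86 ± 0.74 (adjusted p = 0.638), with a 95% interval from -0.59 to 2.30 that spans falls and rises. At a mean of 26.1 normalised counts Gja4 had the second lowest mean of all genes given an adjusted p for DMSO and for I-CBP112. With no filter on low counts its adjusted p for I-CBP112 was 0.0605.

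Markers of endothelium, where Gja4 is best known, moved beside it in part. In these bulk samples fewer cells of a type and less RNA per cell cannot be told apart. The summed level of 12 endothelial markers was 7845 normalised counts with ethanol, 5240 under DMSO, 5718 under I-CBP112 and 7811 under C646, most of it Flt1. Of 5 tested markers 2 fell with both DMSO and I-CBP112, Tek and Flt1, and 0 rose; Cldn5 was at 0 and 4 of the 12 were below 10. The junction cadherin Cdh5 stood at 13.1 with ethanol, 1.47 under DMSO, 3.04 under I-CBP112 and 8.37 under C646, and Esam at 21.2, 3.91, 10.3 and 20.3. Other untested markers of the list were higher with DMSO than with ethanol: Tie1 at 11.03 against 4.65, Vwf at 11.7 against 8.72 and Pecam1 at 16.3 against 14.9. The part of these markers in the Gja4 result was not tested. Epithelial and keratinocyte markers, set beside Gjb2 and the desmosome genes, summed to 558 with ethanol, 623 under DMSO, 382 under I-CBP112 and 431 under C646 over 12 genes. The higher sum with DMSO came from Krt7, at 525 against 319 with ethanol, while Krt14 was at 5.28 against 55.1, Krt18 at 4.63 against 23.8 and Krt19 at 49.5 against 105. Of 3 tested, Krt7 rose and Krt14 and Krt19 fell with DMSO, and Krt14 fell with I-CBP112; the means of Epcam, Krt5 and Esrp1 were below 1. Their part in these results was not tested.

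Gja1 (ENSMUSG00000050953.10; chromosome 10, 56377330 to 56402513, plus strand), by counts the main connexin of these cells, passed in none of the 6 comparisons. Its rebuilt level was 8908 normalised counts with ethanol, 7662 under DMSO, 7985 under I-CBP112 and 9302 under C646. Its log2 fold change in the authors' deposited tables was -0.22 ± 0.11 with DMSO (adjusted p = 0.174), -0.16 ± 0.11 with I-CBP112 (adjusted p = 0.478) and 0.06 ± 0.11 with C646 (adjusted p = 1). The 95% interval for DMSO ran from 0.743 to 0.996 times the ethanol level, so a fall beyond 0.743 times lies outside it. That interval is a normal one, not adjusted for the number of genes, and a t distribution would widen it. Between the ends of the order, C646 was 0.28 ± 0.11 above DMSO (adjusted p = 0.0563), which passed when the fold changes were centred on the median gene (adjusted p = 0.0271). Genes with fold changes most like those of Gja1, by Euclidean distance over the 3 comparisons among 11980 other genes, were Psmb9 (0.012) and Dbn1 (0.023); 160 genes lay within 0.1.

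Gjc1 (ENSMUSG00000034520.14; chromosome 11, 102799579 to 102819700, minus strand) passed in no comparison. Its rebuilt level was 278 normalised counts with ethanol, 307 under DMSO, 230 under I-CBP112 and 260 under C646, a narrow band. In the authors' deposited tables it stood at 0.14 ± 0.23 with DMSO (adjusted p = 0.764), -0.27 ± 0.23 with I-CBP112 (adjusted p = 0.622) and -0.09 ± 0.23 with C646 (adjusted p = 1).

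Gja5 (ENSMUSG00000057123.14; chromosome 3, 96904693 to 97077416, plus strand), of atrial and conduction cells, passed the test between I-CBP112 and DMSO. Its rebuilt level was 76.0 normalised counts with I-CBP112, 49.1 with C646, 46.9 with ethanol and 27.9 with DMSO. I-CBP112 was highest and DMSO lowest, with ethanol and C646 between them. Against ethanol neither passed in the authors' deposited tables, at -0.75 ± 0.48 with DMSO (adjusted p = 0.338) and 0.70 ± 0.47 with I-CBP112 (adjusted p = 0.467). The difference itself, I-CBP112 over DMSO, was 2.72-fold, or 1.44 ± 0.48 on the log2 scale (adjusted p = 0.0407, 95% interval 1.42 to 5.22 times). Among tested members it was the only one past this test, 1 of 9, where 6.95% of genes passed (4.29% upward and 2.66% downward). That count is near the share of all genes. The other members missed the threshold, which does not show that their levels were alike in these groups. Between I-CBP112 and DMSO 0 of 5 tested endothelial markers passed. Of 12 cardiomyocyte markers 1 was higher with I-CBP112 and 2 were lower. Myl7 was among the lower ones, at 31778 normalised counts with I-CBP112 against 58408 with DMSO. Smooth muscle markers shared the direction of Gja5 between I-CBP112 and DMSO, 6 of 7 being higher with I-CBP112. Against ethanol 7 of 7 fell with DMSO, while with I-CBP112 1 fell and 0 rose. The summed level of these markers was 129660 normalised counts with ethanol, 87954 under DMSO, 132386 under I-CBP112 and 127924 under C646. Their part in the Gja5 result was not tested. With no filter on low counts the adjusted p of Gja5 was 0.0885, and with the upper bound of the standard error, which takes no account of the shared ethanol libraries, it was 0.505.

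Desmoplakin, Dsp (ENSMUSG00000054889.9; chromosome 13, 38151294 to 38198577, plus strand), was among the most abundant members and rose with both treatments. Its rebuilt level was 12148 normalised counts with ethanol, 20503 under DMSO, 18104 under I-CBP112 and 11998 under C646. DMSO and I-CBP112 were high and C646 was level with ethanol. Dsp in the authors' deposited table for DMSO was 1.69 times as high as with ethanol, at 0.76 ± 0.13 (adjusted p = 1.14e-07). For I-CBP112, the authors' deposited table put it 1.49 times as high, at 0.58 ± 0.13 (adjusted p = 0.000174), and in that for C646 it stood at -0.02 ± 0.13 (adjusted p = 1). I-CBP112 and DMSO differed by -0.18 ± 0.13 (adjusted p = 0.525, 95% interval 0.744 to 1.05 times). The genes with the fold changes most like those of Dsp were Arhgap31 (distance 0.019), Slc6a6 (0.030) and Tmx4 (0.033), among 23 within 0.1.

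Of the desmosomal cadherins Dsc2 passed against ethanol and Dsg2 did not. Dsc2 (ENSMUSG00000024331.11; chromosome 18, 20030633 to 20059554, minus strand) stood at 246 normalised counts with ethanol, 516 under DMSO, 425 under I-CBP112 and 235 under C646. For DMSO, the authors' deposited table put it 2.10 times as high, at 1.07 ± 0.29 (adjusted p = 0.00247). In the authors' deposited table for I-CBP112 it was at 0.79 ± 0.29 and just outside the threshold (adjusted p = 0.058), and scaled to totals it passed (adjusted p = 0.0487). Dsg2 (ENSMUSG00000044393.15; chromosome 18, 20558074 to 20604521, plus strand), in the same gene cluster, stood at 87.6 with ethanol, 62.3 under DMSO, 113 under I-CBP112 and 70.4 under C646. It passed in no table, at -0.49 ± 0.40 with DMSO (adjusted p = 0.486) and 0.37 ± 0.39 with I-CBP112 (adjusted p = 0.732) in the authors' deposited tables. The I-CBP112 level of Dsg2 was 0.86 ± 0.40 above that of DMSO, not past the test (adjusted p = 0.219). Whether Dsc2 and Dsg2 responded differently from each other was not tested. The skin-type cadherins of this cluster, Dsg1a, Dsg1b, Dsg1c, Dsg3, Dsc1 and Dsc3, had means between 0.11 and 5.16 normalised counts, and Dsg4 was at 0.

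Of the plaque proteins, Pkp2 (ENSMUSG00000041957.15; chromosome 16, 16213318 to 16272712, plus strand) was at 3106 normalised counts with both ethanol and C646, 3571 with DMSO and 3930 with I-CBP112. For I-CBP112, the authors' deposited table put it 1.27 times as high, at 0.34 ± 0.12 (adjusted p = 0.0421), and in that for DMSO at 0.20 ± 0.12 (adjusted p = 0.275). This call is near the threshold: centred on the median gene its adjusted p for I-CBP112 was 0.0572. The I-CBP112 and DMSO levels of Pkp2 differed by 0.14 ± 0.12 (adjusted p = 0.632). Plakoglobin (Jup), the remaining core desmosome gene, was at 5196 with ethanol, 4626 under DMSO, 5533 under I-CBP112 and 4890 under C646, with no table past the test.

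I-CBP112 and C646 act on the same acetyltransferases at different domains and were used at the same dose and time, so they were compared directly, as 1 of 3 pairs of treatments, with p-values adjusted over all 14830 genes. Gja3, Dsp, Pkp2 and Dsc2 were higher with I-CBP112, 4 of 9 members, where 9.81% of genes passed (4.7% upward and 5.11% downward). Gja3 was 2.28 times as high (1.19 ± 0.34, adjusted p = 0.00854), Dsc2 1.81 times (0.86 ± 0.29, adjusted p = 0.0337) and Dsp 1.51 times (0.59 ± 0.13, adjusted p = 9.74e-05). Pkp2 was 1.27 times as high (0.34 ± 0.12, adjusted p = 0.0417), a call lost when centred on the median gene (adjusted p = 0.0526). With no filter on low counts Gja3 and Dsp alone passed. Gja4 was 0.303 times as high with I-CBP112 as with C646 and missed the threshold (-1.72 ± 0.64, adjusted p = 0.0665, 95% interval 0.127 to 0.723 times). For Gja1 (-0.22 ± 0.11, 95% interval 0.742 to 0.993 times) and Gjc1 (-0.18 ± 0.23, 0.645 to 1.21 times) the difference did not pass, which does not show that the inhibitors act alike on them. Against DMSO, C646 had lower Gja3, Dsp and Dsc2 and higher Gja4, 4 of 9, where 15.9% of genes passed (7.99% upward and 7.89% downward). With that upper bound Dsp alone passed for I-CBP112 versus C646, and Gja3 and Dsp for C646 versus DMSO. The plot of differences between treatments gives each interval.

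**Figure D3:**
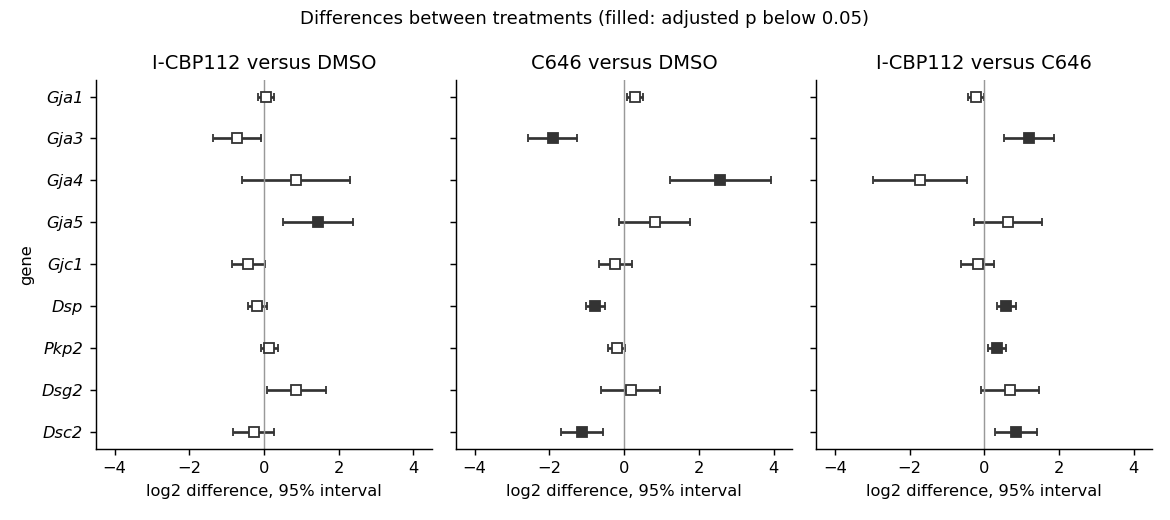
Log2 difference between treatments with its 95% interval for the 9 tested genes, in 1 panel for each pair; filled squares have an adjusted p below 0.05. Gja5 is the one filled point for I-CBP112 versus DMSO, and Gja3, Dsp, Pkp2 and Dsc2 are filled to the right of 0 for I-CBP112 versus C646.

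The precision of these values differed between members. As a coefficient of variation, the dispersion solved from the standard errors was 7.38% for Gja1, 7.98% for Pkp2 and 8.74% for Dsp. It was 37.7% for Gja4, 29.1% for Gja5 and 25.2% for Dsg2. This is a fitted value, not a spread observed between libraries, for which no single values were given. Counting error made up 0.852% of the squared standard error for Dsp and 37.8% for Gja4 in the DMSO comparison. Small changes could therefore pass for the abundant genes, such as 1.27-fold for Pkp2, while 1.62-fold for Gja5 with I-CBP112 did not.

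The core heart desmosome genes, the 4 members and Jup, had a median log2 fold change of 0.20 with DMSO and 0.37 with I-CBP112, 2 of 5 higher and 0 lower in each. Other genes of cell junctions moved in both directions, and their counts stand against the 8.07% of all tested genes that rose and 7.9% that fell with DMSO, and the 4.65% and 5.25% with I-CBP112. The list of intercalated disc partners holds proteins of that cell border and some described from other parts of the cell, Ldb3 and Ehd4 among them. Of its 21 tested genes 6 rose and 1 fell with DMSO (median log2 fold change 0.24, against 0.03 over all tested genes). With I-CBP112 5 rose and 2 fell (median 0.30, against 0.01). Ldb3, a Z-disc protein, was at 1.34 ± 0.13 with DMSO and 1.08 ± 0.13 with I-CBP112, and Bves, a membrane protein of striated muscle, at 1.31 ± 0.27 and 1.32 ± 0.27 in the authors' deposited tables. Ehd4, of endosomal transport, was at 0.89 ± 0.12 and 0.84 ± 0.12, and Popdc2, a relative of Bves, at 0.78 ± 0.12 and 0.91 ± 0.12 in the authors' deposited tables. Of 18 adherens junction genes 1 rose and 5 fell with DMSO (median -0.15) and 2 rose and 3 fell with I-CBP112 (median -0.07); the 1 of 18 that rose with DMSO is near the share of all genes. The catenin Ctnna3, which binds plakophilin at the cardiac intercalated disc, was at 1.22 ± 0.21 and 0.67 ± 0.21, and P-cadherin, Cdh3, at -1.27 ± 0.15 and -1.03 ± 0.15 in the authors' deposited tables. Cdh2, N-cadherin, the cadherin of the intercalated disc, did not pass, at 0.09 ± 0.11 and 0.17 ± 0.11 in the authors' deposited tables. Of 3 tested other desmosome genes Pkp4 rose with DMSO, at 0.62 ± 0.19 in the authors' deposited table, and 0 passed with I-CBP112.

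Of 17 gap junction partners and kinases 1 rose and 4 fell with DMSO (median -0.09) and 2 fell with I-CBP112 (median -0.03); the 1 that rose, and the 2 of 17 called with I-CBP112, are near the shares of all genes. Caveolin Cav1 was at -0.71 ± 0.11 and -0.65 ± 0.11 in the authors' deposited tables, and the kinase Src, which phosphorylates Cx43, at -0.60 ± 0.14 with DMSO and -0.14 ± 0.14 with I-CBP112 in the authors' deposited tables. Tjp1, the scaffold that binds the tail of Cx43, did not pass, at 0.12 ± 0.11 and 0.07 ± 0.11 in the authors' deposited tables. Of 11 tested cardiac transcription factors chosen as regulators of connexin genes 5 rose with DMSO (median 0.44) and 4 with I-CBP112 (median 0.30), and 0 fell. Gata4, Hand2 and Mef2c, which the viruses also encode, are 3 of the 5 and 3 of the 4, and their vector transcripts were not counted apart from endogenous ones. Tbx2, a repressor of Gja1 and Gja5 in nodal tissue, was at 1.03 ± 0.24 and 0.84 ± 0.24, and Mef2c at 0.76 ± 0.13 and 0.50 ± 0.13 in the authors' deposited tables. Nkx2-5, an activator of Gja5, had a mean of 0.33 normalised counts. With C646, 0 members of these lists passed. Cardiomyocyte markers rose beside these genes, 9 of 12 with DMSO and 12 of 12 with I-CBP112, and fibroblast markers fell, 8 and 6 of 10. The cardiomyocyte markers summed to 125467 normalised counts with ethanol, 351486 under DMSO, 351260 under I-CBP112 and 127655 under C646, and the fibroblast markers to 1075240, 681563, 654439 and 1058870. Their part in the connexin and desmosome results was not tested. The pannexin tested, Panx1, passed in neither table, and of 6 tested macrophage markers 0 passed with DMSO and 2 fell with I-CBP112. The plot of junction gene lists shows each tested gene.

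**Figure D4:**
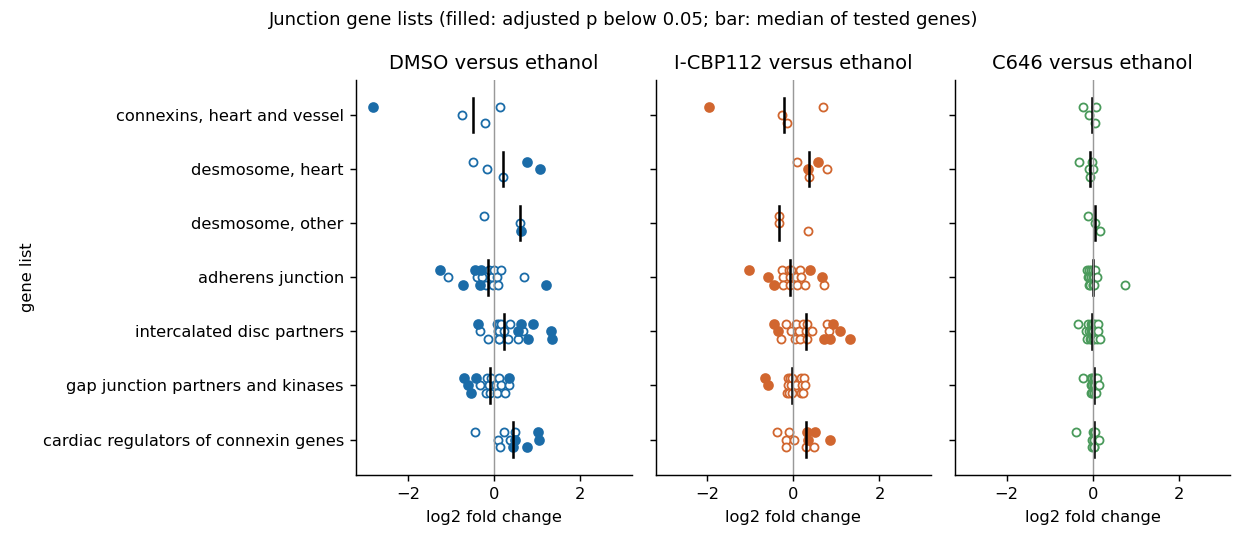
Log2 fold change against ethanol from the authors' deposited tables for every tested gene of 7 junction lists, in 1 panel for each treatment; filled points have an adjusted p below 0.05 and the black bar is the median of the list. Filled points lie on both sides of 0 for DMSO and I-CBP112, and the C646 panel has none.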

How the data were processed

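Per the submitters' processing notes, the authors quantified reads with kallisto 0.43.1 on GRCm38.p5 and compared groups with DESeq2 (version not stated). The signal is baseMean, the authors' mean normalised count over the 8 libraries, equal in the 3 tables. The log2 fold change, its standard error, the Wald score and each p-value are the authors' deposited values; errors after ± against ethanol are theirs. Ethanol was taken as the reference; of 2312 genes of about 1 count, 596 were lower in all 3 tables, as they would be with the remaining group as reference.

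Levels per group follow from baseMean together with the 3 fold changes (Python 3.11.15, scipy 1.17.1). One dispersion per gene, solved from the 3 standard errors, gave back 98.9% to 99.0% of them to within 1%. Differences between treatments used the 2 deposited standard errors less the shared ethanol variance, and a normal p. All 95% intervals are normal ones too and are not adjusted for the number of genes. Some therefore exclude equal levels where the adjusted test was not passed. Benjamini-Hochberg adjustment ran over the 14830 genes that have an adjusted p for DMSO. A run on simulated libraries used a known dispersion and the same error formula. It therefore checks the arithmetic of the step and not how well dispersion is estimated from 2 libraries. Summed normalised counts by group ran from 37516600 to 38573400, and the median standard error was 0.185. Depth per library is unknown. Positions come from GENCODE M21, which holds all 10 members, and promoters from RefSeq. Named genes are all members, Jup, the 3 genes nearest in fold changes to Gja1 and Dsp, from each list up to 4 genes with the largest change past the test, plus partners named for their role after their values were seen; some genes that this rule names are not reported here. The members and lists were chosen with earlier results of these data known. Alternatives were the scaling, the filter, a t distribution and an upper bound of the standard error.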

Additional observations from a re-analysis of the deposited data

How the results depend on the processing

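When p-values came from the t distribution (4 degrees of freedom), 0 members passed in any of the 6 comparisons; of all genes 1 passed for DMSO versus ethanol and 0 in the others. Without a filter on low counts, 2 members passed for I-CBP112 versus ethanol, 0 for I-CBP112 versus DMSO and 2 for I-CBP112 versus C646, by adjustment over 34250 genes. At a mean of 100 or more, 2 passed for DMSO and 2 for I-CBP112 versus ethanol and 0 for I-CBP112 versus DMSO, since Gja3, Gja4, Gja5 and Dsg2 are then not tested. With the upper bound of the standard error, 0 passed for I-CBP112 versus DMSO, 2 for C646 versus DMSO and 1 for I-CBP112 versus C646; of all genes 237, 839 and 501 passed, against 1030, 2355 and 1455. Pkp2 with C646 turned from -0.000265 to 0.00855 when scaled to totals. The split of all calls between higher and lower moved by less than 10 percentage points under either scaling. Library titles in every group carry the same 2 numbers, 2 and 3, with no statement of what they mark, and every error and p here treats the libraries as unpaired. No paired analysis was possible because the tables hold no values of single libraries; leaving out libraries was not run for the same reason.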
